A study of Homo sapiens with 2 samples.

Results

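The MHC class II presentation genes examined here are CD74, HLA-DRA, HLA-DPA1, HLA-DPB1, HLA-DMA, HLA-DMB, HLA-DOA, HLA-DOB and CIITA. They were chosen by name, as every probe whose platform gene symbol is one of these 9, which gave 12 of 47322 probes and 9 of 20046 named genes. Total RNA came from cells labelled Jurkat, a line established from a human T cell leukaemia, kept for 24 hours in RPMI medium with fetal bovine serum. They received Me6TREN, a branched polyamine known as a ligand of metal ions, at a dose the labels do not state, or PBS (phosphate-buffered saline) as control. Each of these 2 groups had 1 Illumina HT12 array, and the labels name no other agent or genetic change. With no replicates, values are given without an error or a test, differences are between 2 single arrays, and the number of arrays limits the precision.

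MHC class II molecules are pairs of an alpha and a beta chain that carry peptides from endosomes to the cell surface, where CD4+ T cells read them. CD74, the invariant chain, plugs the groove of new class II molecules and guides them to endosomes, where proteases cut it down to a fragment called CLIP. HLA-DM, made of HLA-DMA and HLA-DMB, exchanges CLIP for antigenic peptides, and HLA-DO, made of HLA-DOA and HLA-DOB, restrains HLA-DM, mostly in B cells. CIITA is the coactivator that switches these genes on together: it does not bind DNA itself but docks on the RFX, CREB and NF-Y proteins, which sit on the X and Y boxes shared by class II promoters. B cells, dendritic cells and macrophages are the usual class II positive cells, and Jurkat cells are known for lacking HLA-DR at their surface.

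The promoter sequences of 5 of the genes are shown because CIITA acts through X and Y boxes in this stretch, and because they let both chains of HLA-DM and of HLA-DO be set side by side. Each run is the 150 bases before the RefSeq gene start (build GRCh38.p14), read 5′ to 3′ on the strand of the gene. Capitals mark matches on either strand to a core of the X box (AGNNACNGA), to the TGATGATG stretch at the junction of its X1 and X2 parts, and to a core of the Y box (ATTGG, or CCAAT on the other strand). Neighbouring matches run together where they overlap.
CD74, chr5:150412911-150413060, minus strand: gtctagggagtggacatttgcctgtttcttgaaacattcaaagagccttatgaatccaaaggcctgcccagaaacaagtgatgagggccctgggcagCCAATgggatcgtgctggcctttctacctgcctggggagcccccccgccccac
HLA-DMA, chr6:32953098-32953247, minus strand: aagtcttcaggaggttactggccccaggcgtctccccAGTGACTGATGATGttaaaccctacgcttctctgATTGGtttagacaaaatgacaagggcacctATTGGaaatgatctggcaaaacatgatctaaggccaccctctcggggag
HLA-DMB, chr6:32941029-32941178, minus strand: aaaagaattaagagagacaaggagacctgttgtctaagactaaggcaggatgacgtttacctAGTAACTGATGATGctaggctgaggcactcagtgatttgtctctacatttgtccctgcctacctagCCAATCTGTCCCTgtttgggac
HLA-DOA, chr6:33009592-33009741, minus strand: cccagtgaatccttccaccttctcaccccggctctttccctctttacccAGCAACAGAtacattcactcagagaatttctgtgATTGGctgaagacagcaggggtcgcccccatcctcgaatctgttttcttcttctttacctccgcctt
HLA-DOB, chr6:32817003-32817152, minus strand: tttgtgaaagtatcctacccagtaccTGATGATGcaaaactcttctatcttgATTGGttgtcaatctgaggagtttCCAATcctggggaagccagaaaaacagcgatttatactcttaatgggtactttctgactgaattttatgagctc

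The first 2 motifs overlapped in HLA-DMA and HLA-DMB, and HLA-DMB held a second X match, on the other strand, that shared a base with its Y match. In the 250 bases before the start, the X core was found in 4 of the 7 member genes with an entry in the RefSeq promoter table (HLA-DMA, HLA-DMB, HLA-DOA and HLA-DPA1) and in 12.3% of all 35116 entries. The junction stretch was found in HLA-DMA, HLA-DMB and HLA-DOB and in 0.795% of all entries. The Y core was found in 6 of the 7 genes and in 32.0% of all entries. An X core followed after 10 to 35 bases by a Y core on the same strand was found in HLA-DMA and HLA-DOA and in 0.276% of all entries. HLA-DPA1 has 2 entries, of which the one that ends at base 33073799 of chromosome 6 holds the X core and the other holds none of the motifs. The motifs were written after the sequences had been seen, and a match describes letters, not a bound site.

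**Figure D1:**
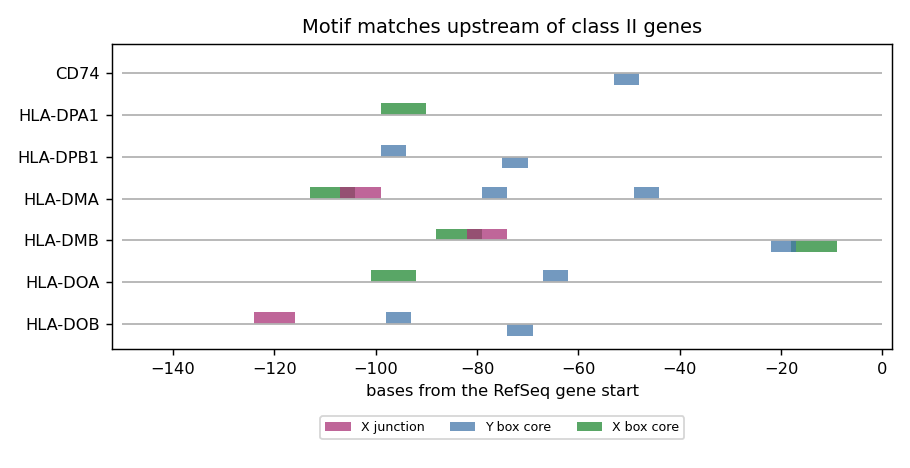
Positions of motif matches in the 150 bases before the RefSeq gene start of 7 class II genes (horizontal axis, bases from the start). Boxes above a line are matches on the strand of the gene and boxes below it matches on the other strand; the overlapping X and junction matches lie 113 to 100 bases before the start of HLA-DMA and 88 to 75 bases before that of HLA-DMB. HLA-DPA1 is drawn by the entry with a match.

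The labelled cell type was checked against marker lists, and B lineage markers stood beside the class II signals on both arrays while 8 of 17 T cell markers were detected on neither array and 5 on a single array. Detection means a deposited detection p-value below 0.01, and the lowest detected signals were 333.4 in the control and 350.5 with Me6TREN. Both arrays detected 12 of the 14 B cell markers with a probe (85.7%) and 4 of the 17 T cell markers (23.5%), where the share over all named genes was 39.1%. Of the CD3 signalling complex of T cells, CD3E was detected on neither array. CD247 was detected on both (1218.7 in the control and 726.4 with Me6TREN). CD3D (587.4 and 250.3) and CD3G (348.0 and 312.3) were detected in the control alone. CD79A, part of the B cell receptor, gave 32313.3 in the control and 33454.8 with Me6TREN, and MS4A1 (CD20) gave 1139.9 and 998.0. PAX5 was not detected. Deposited signals, background included, were summed over the measured genes of each list, so the sums depend on list size and on a few bright probes. The B markers gave 152432 in the control and 129717 with Me6TREN. After normalisation the 12 measured B markers had a median log2 ratio (Me6TREN minus control) of −0.16, against −0.02 for all measured genes. Of them, 2 were at least 1.5-fold higher and 1 lower. Over all measured genes 16.5% were that much higher and 21.9% lower, and the B counts do not set these markers apart. The T markers gave 5200 in the control and 4162 with Me6TREN. The 9 measured T markers had a median log2 ratio of 0.10. Of them, 2 were at least 1.5-fold higher (CD28 and ZAP70) and 1 lower (CD3D). ZAP70 was detected with Me6TREN alone and CD3D in the control alone, so each could be counted in 1 direction only. Of 14 myeloid and dendritic markers CD68 was the only gene detected on both arrays. CD14 (312.5 in the control and 370.0 with Me6TREN) and LYZ (293.0 and 350.9) were detected with Me6TREN alone. S100A8 (358.8 and 307.0) was detected in the control alone, and these signals lie near the detection limits. The list sums were 2245 and 2352. Both arrays detected 1 of 5 natural killer markers and none of the epithelial and endothelial ones. The markers detected thus matched the B list more than the T list of the labelled cell type, and the identity of the cells was not tested further. The part of cell type in the class II differences was not tested. In bulk RNA, fewer cells of a type and less RNA per cell cannot be told apart.

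RNA of 8 of the 9 genes was detected on both arrays, where the share over all named genes was 39.1%. Under quantile normalisation, though not with every scaling, the log2 ratios of CD74, HLA-DRA and HLA-DPA1 were near 0. The probe of the coactivator CIITA was at the edge of detection with Me6TREN. With normalised signals, 2 of the 9 genes were at least 1.5-fold lower with Me6TREN, CIITA and HLA-DMB, where 21.9% of the 9410 measured genes were that much lower. None was at least 1.5-fold higher, where 16.5% of the measured genes were. The median log2 ratio (Me6TREN minus control) of the 9 genes was 0.04 and that of all measured genes −0.02. These counts are near the shares over all genes and describe the set without setting it apart. At 2-fold, CIITA alone was lower (background 9.94%) and no member was higher (background 6.74%). CIITA was detected in the control alone and so could be counted only as lower. Of the 9410 measured genes, 1250 were detected in the control alone and 326 with Me6TREN alone, which also enters the background shares.

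CIITA, which has 1 probe here, had a signal of 841.4 in the control and 350.1 with Me6TREN. The control signal was 2.52 times the lowest detected signal of its array, and the Me6TREN signal lay just under that limit, with a detection p-value of 0.0104. That p-value is 8 steps of 1 in 770. The means rested on 18 and 25 beads. After normalisation CIITA was at least 3.81-fold lower with Me6TREN (log2 ratio at most −1.93), the largest difference among the 9 genes in absolute size. The size depends on the background step and on the scaling. The deposited signals, with background left in, differ 2.40-fold, and without background correction the log2 ratio was −1.004. It was −2.44 with median centring and −2.52 with the authors' series matrix values. It was negative under the 9 alternatives that gave a value, and the alternative restricted to genes detected on both arrays leaves CIITA out.

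HLA-DRA, HLA-DPA1 and the invariant chain CD74 were bright by their brightest probes and had small ratios under quantile normalisation. With centring on probes detected on both arrays, their log2 ratios were 0.82, 0.85 and 0.74. HLA-DRA, the alpha chain of HLA-DR, had 2 probes. The first gave 54511.9 in the control and 61822.0 with Me6TREN, and the second 63806.4 and 68558.2, so that both were slightly brighter with Me6TREN before normalisation. The second, brighter probe stood at 86.5% of the highest signal of the control array and 91.9% of that of the Me6TREN array, so little room was left above it. Its log2 ratio was 0.04 and that of the first probe 0.07.

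CD74 had 3 probes. The first gave 57349.9 in the control and 58333.7 with Me6TREN, the third 29938.7 and 30276.8, and the dim second probe 1526.1 and 1056.7. The bright probes had log2 ratios of −0.09 and −0.05. The second probe was 1.44-fold lower with Me6TREN as deposited but had a log2 ratio of 0.03 after normalisation. Quantile normalisation gives both arrays the same distribution, and the 75th percentile of the deposited signals was 397.5 with Me6TREN against 466.7 in the control.

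HLA-DPA1, the alpha chain of HLA-DP, gave 26602.1 in the control and 29042.4 with Me6TREN, a log2 ratio of 0.09. Its partner chain HLA-DPB1 gave 3763.7 and 3654.5, a log2 ratio of 0.49 after normalisation. The deposited signals of HLA-DPB1 thus differed by a few percent in the opposite direction, and its log2 ratio was −0.01 with median centring. Class II chains vary between people, and a probe can bind some alleles less well, so signals of different chains cannot be ranked.

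**Figure D2:**
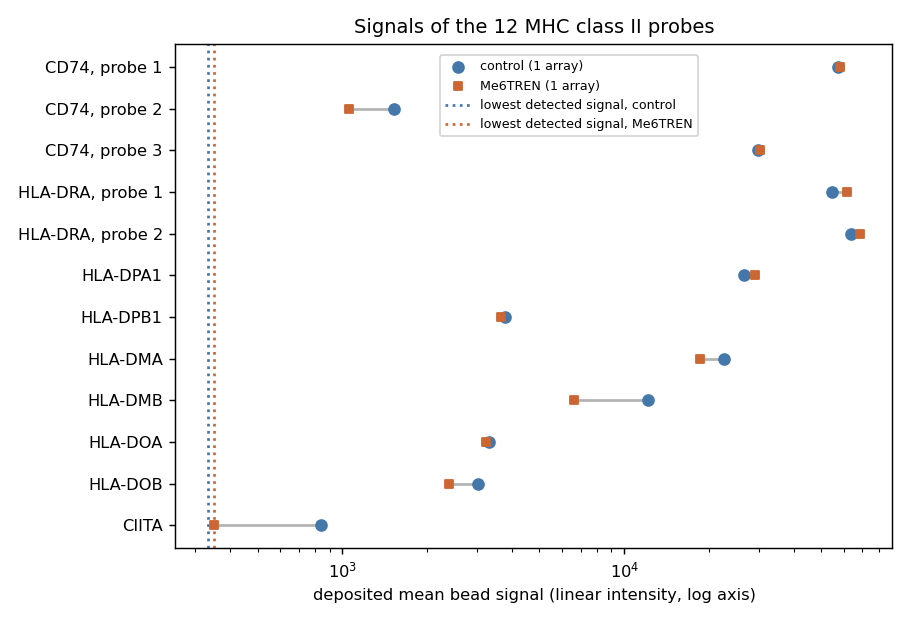
Deposited mean bead signal of each of the 12 probes (logarithmic horizontal axis, linear intensity with background) on the control array (circles) and the Me6TREN array (squares), with the lowest detected signals as dotted lines. Probes of a gene are numbered in the order in which the text gives them. CIITA lies at 841.4 in the control and at the detection limit with Me6TREN and HLA-DMB at 12163.1 and 6626.9, while the circles and squares of HLA-DRA, HLA-DPA1, HLA-DPB1 and HLA-DOA nearly meet.

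Of the peptide-editing pair, HLA-DMB was past the threshold and HLA-DMA was not. HLA-DMB gave 12163.1 in the control and 6626.9 with Me6TREN, on 22 and 20 beads, and was 1.501-fold lower after normalisation (log2 ratio −0.59). That lies on the 1.5-fold threshold, which is 0.58 on the log2 scale, and the ratio missed it narrowly without background correction (−0.57) and with normexp over all probes or a neqc offset of 50 (both −0.58). HLA-DMB was lower as deposited (1.84-fold), with median centring (log2 ratio −0.86) and with the series matrix values (−0.76). HLA-DMA, the other chain of HLA-DM, gave 22598.8 and 18529.8. Its log2 ratio of −0.24 became 0.43 with centring on detected probes. The difference between the chains was not tested, since each has 1 probe and 1 array per group.

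HLA-DOA, the alpha chain of the HLA-DM inhibitor, gave 3319.3 in the control and 3244.0 with Me6TREN, and HLA-DOB, its beta chain, 3031.6 and 2384.4. Their log2 ratios were 0.52 and 0.22 after normalisation. With median centring these became −0.0027 and −0.35, so neither kept 1 direction. HLA-DOB also turned with the series matrix values (−0.24).

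**Figure D3:**
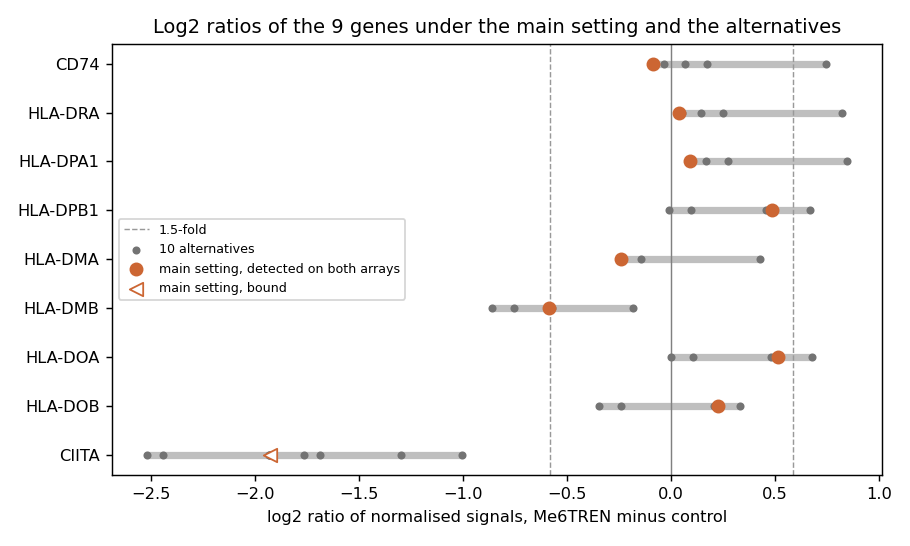
Log2 ratio of normalised signals (Me6TREN minus control, horizontal axis) of each of the 9 genes, with the main setting in orange, the open triangle for CIITA as a bound, and the 10 alternatives as grey points on a bar from the lowest to the highest. CIITA lies between −2.52 and −1.004 under the alternatives and HLA-DMB between −0.86 and −0.18, and the bars of CD74, HLA-DPB1, HLA-DMA, HLA-DOA and HLA-DOB cross 0.

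The scaling moved the medians of all genes and of the 9 genes by unequal amounts. From quantile normalisation to median centring, the log2 ratio of CD74 went from −0.09 to 0.06 and that of HLA-DPB1 from 0.49 to −0.01. Under quantile normalisation 43.0% of the genes past 1.5-fold were higher. With each array centred on its median signal, the share was 10.4%. The log2 ratios then had a median of −0.51 over all measured genes and −0.01 over the 9 genes. With the series matrix values, 13.8% were higher and the medians were −0.43 and 0.10. With centring on probes detected on both arrays, an alternative chosen after seeing the data, 57.8% were higher, the median of all genes was 0.02 and that of the 9 genes 0.67. In that last setting CD74, HLA-DRA, HLA-DPA1, HLA-DPB1 and HLA-DOA were past 1.5-fold higher, with log2 ratios from 0.67 to 0.85. HLA-DMB was at −0.18 there, and CIITA at −1.76. HLA-DRA and HLA-DPA1 were above 0, and CIITA and HLA-DMB below 0, in the main setting and under all the alternatives that gave them a value.

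**Figure D4:**
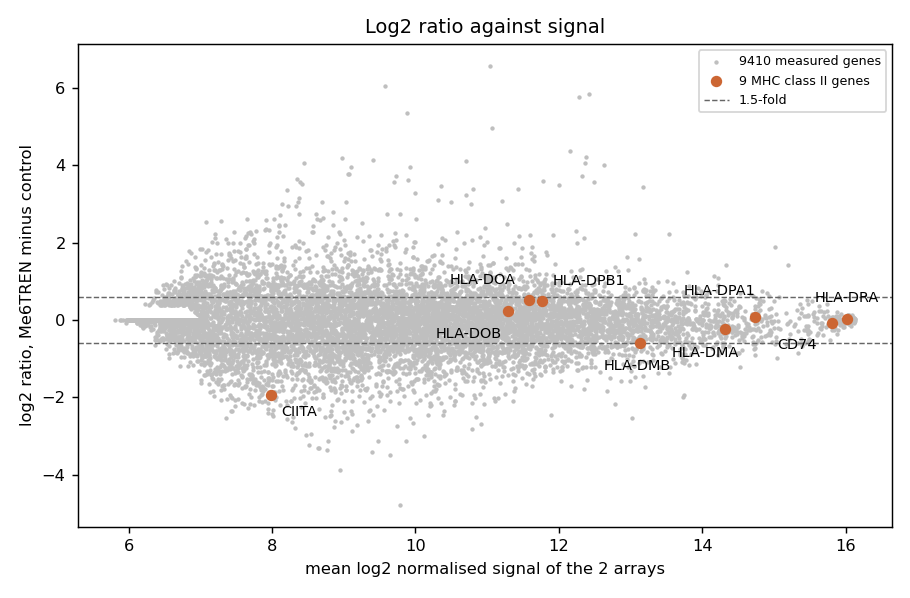
Log2 ratio (Me6TREN minus control) against the mean log2 normalised signal of the 2 arrays for 9410 measured genes (grey) and the 9 class II genes (orange), with 1.5-fold as dashed lines. Ratios narrow at the bright end, where CD74 and HLA-DRA lie; genes detected on 1 array are drawn at their bound, which leaves the gap at the dim end.

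CD74, HLA-DRA, HLA-DPA1, HLA-DMA and HLA-DMB are among the 873 genes with a control signal over 10000, of which 16.2% were at least 1.5-fold lower and 4.12% higher. HLA-DMB was the 1 of these 5 past the threshold. The 873 genes were picked by the control array alone, which by itself favours lower ratios. The 2 shares therefore do not measure an effect of Me6TREN.

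The proteins that hold CIITA on class II promoters and the enzymes it recruits had lower signals for most of their genes. Of 12 genes on that list, all measured, 7 were at least 1.5-fold lower, 1 was higher and 4 were neither, where 21.9% of all measured genes were lower and 16.5% higher. Their median log2 ratio was −0.70 against −0.02 for all measured genes, and it became −1.31 with median centring, which moved all genes to −0.51. The 3 subunits of RFX, the complex that binds the X box, were all among the lower genes. RFX5, its DNA-binding subunit, gave 8271.0 in the control and 2870.3 with Me6TREN and was 2.18-fold lower. RFXAP gave 1469.5 and 500.0 and was 2.94-fold lower. RFXANK gave 2910.1 and 1315.4 by its brightest probe and was 1.59-fold lower, and its other 2 probes had log2 ratios of −1.03 and −1.10. All 3 kept a log2 ratio between −2.22 and −0.59 under the 10 alternatives.

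The subunits of NF-Y, which binds the Y box, had ratios in both directions. NFYA gave 605.6 in the control and 1304.9 with Me6TREN and was 4.50-fold higher, the 1 gene of the list that was higher. NFYC gave 3016.0 and 1316.0 and was 1.66-fold lower. NFYB was detected on the control array alone, at 382.1 against 344.8. The histone acetyltransferases that CIITA recruits were lower too: KAT2B was 1.90-fold lower, EP300 1.66-fold lower and CREBBP 2.86-fold lower by its brightest probe, while the dim second probe of CREBBP was 1.52-fold higher. EP300 was not past the threshold without background correction (log2 ratio −0.38) or with normexp (−0.50), nor was CREBBP by the mean of its probes (−0.46). CREB1, which binds the X2 part, had 3 probes detected on both arrays, with log2 ratios of −1.45, 0.06 and, for the brightest, 0.18. Another 2 were detected on a single array each, with bounds of −0.33 and 0.40.

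**Figure D5:**
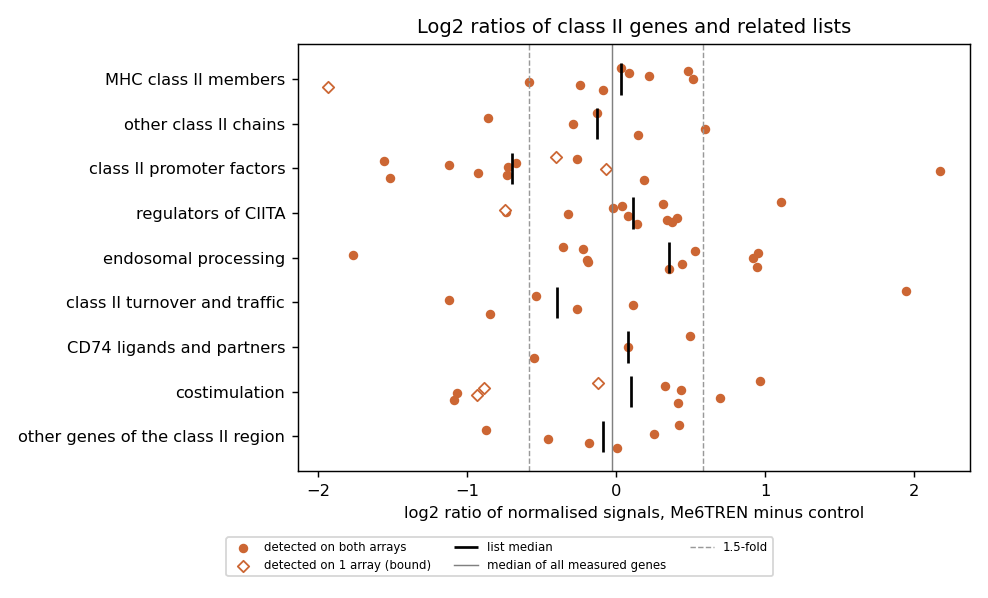
Log2 ratio (Me6TREN minus control, horizontal axis) of each measured gene of the class II set and of 8 related lists, with filled circles for genes detected on both arrays, open diamonds for bounds, black bars for list medians and a grey line for the median of all measured genes. The promoter factors have the lowest list median, −0.70, and NFYA lies apart from them at 2.17.

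Among 15 genes with a probe that regulate CIITA or its induction by interferon gamma, 12 were measured, 2 of them at least 1.5-fold lower and 1 higher, where the shares over all measured genes were 21.9% and 16.5%. PRDM1, the repressor that silences CIITA as B cells become plasma cells, gave 489.3 on the control array and was not detected on the Me6TREN array (230.9), at least 1.68-fold lower. That value rests on 1 probe, and the other probes of PRDM1 were detected on neither array. Detected in the control alone, PRDM1 could be counted only as lower. The kinase JAK1 of the interferon receptor was 1.67-fold lower. USF2, a partner of USF1, which acts at a CIITA promoter, was 2.16-fold higher, and its other probes had log2 ratios of 0.95 and 1.70. All 3 calls depended on the setting: PRDM1 (log2 ratio −0.31) and JAK1 (−0.51) were not past the threshold without background correction, nor was USF2 with median centring (0.57). PRDM1 also missed it with normexp (−0.44) and with centring on detected probes (−0.54). IRF1 (log2 ratio 0.41), IRF8 (−0.32), SPI1 (−0.02) and both chains of the interferon gamma receptor (0.38 and 0.34) were not past the threshold. PAX5, IRF4 and JAK2 were not detected on either array.

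Of the other class II chains, 8 had a probe and 5 were measured. HLA-DRB4 was 1.82-fold lower by its bright probe (53681.1 in the control and 31625.6 with Me6TREN), and its dim probe had a log2 ratio of 0.51. With the mean of its probes the log2 ratio was −0.17, and with centring on detected probes −0.05, neither past the threshold. HLA-DRB1 was 1.51-fold higher, from 837.1 and 797.5 as deposited. Its ratio missed the threshold without background correction (log2 ratio 0.43), with normexp (0.50) and with a neqc offset of 50 (0.56). It also missed with the series matrix values (0.006) and with centring on detected probes (0.580), and its direction turned with median centring. HLA-DRB3 (log2 ratio −0.29), the pseudogene HLA-DRB6 (−0.13, and 0.58 by its dimmer probe) and HLA-DQB1 (0.15) were not past the threshold. The HLA-DRB genes share most of their sequence and differ between people, so the assignment of these signals to 1 copy is uncertain.

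The genes of the endosomal steps had ratios in both directions. Of 14 with a probe, 11 were measured, of which 3 were at least 1.5-fold higher and 1 lower, where the shares over all measured genes were 16.5% and 21.9%. IFI30, the thiol reductase that opens disulfide bonds of antigens, gave 5518.6 in the control and 8116.7 with Me6TREN and was 1.94-fold higher. The cathepsins CTSB and CTSL were 1.93-fold and 1.89-fold higher after normalisation, from deposited signals of 595.7 and 676.0 for CTSB and 388.7 and 444.9 for CTSL. Neither was past the threshold with median centring (log2 ratios 0.27 and 0.35) or with the series matrix values (0.39 and 0.49), nor was CTSL without background correction (0.42) or with normexp (0.57). CTSZ, another cathepsin, gave 5918.4 and 1372.2 and was 3.40-fold lower. CTSS, the protease known to trim CD74 in B cells and dendritic cells, was not detected on either array, and SPPL2A, which removes the last membrane fragment of CD74, had a log2 ratio of −0.35. None of the 3 measured genes for ligands and partners of CD74 was past the threshold under quantile normalisation. MIF, a ligand of CD74, gave 37481.6 and 58592.1, a log2 ratio of 0.49. It was past the threshold with median centring (0.69), the series matrix values (0.79) and centring on detected probes (1.37). Its relative DDT had a log2 ratio of 0.08, and 0.87 with centring on detected probes. CXCR4, a partner of CD74 in MIF signalling, had −0.55 by its brightest probe and 0.46 by another, and the brightest passed the threshold with median centring (−1.07) and the series matrix values (−0.96).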

How the data were processed

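RNA of 1 Me6TREN and 1 control culture was measured on Illumina HT12 arrays, with groups taken from the treatment labels. Per the file headers, the authors deposited for each array a mean bead signal per probe (linear intensity, not normalised between arrays), a detection p-value in steps of 1 in 770 and a bead number (median 22 on both arrays). The deposited series matrix holds processed intensities, each a straight-line function of the signal of its array. The software, background step and build behind them: not given in the sources used here. The control array detected 15363 probes and the Me6TREN array 13656.

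Signals were normalised with neqc of limma 3.58.1 in R 4.3.3 (offset of 16, quantile normalisation, log2), checked on simulated data. Quantile normalisation hides a shift shared by all genes. GEO's platform annotation named 30113 probes with a single symbol, 8 carried several symbols and 17209 are unnamed here. By Entrez ID, 30074 of the named probes were found in the RefSeq table of GRCh38.p14. Of the probes of a gene that either array detected (p-value below 0.01), the one with the highest mean normalised signal stands for it. For genes seen on a single array the ratio is a bound: the dim side is set to the lowest detected level there, or to the measured value if that is higher. The call threshold is 1.5-fold, and no test was made. Results were recomputed under 9 other settings and 1 chosen after seeing the data.

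The members, lists and thresholds were chosen with earlier results of these data known. All 9 members are named with every probe, and of each list the genes past 1.5-fold or up to 4 with the largest ratios. Genes named beyond that, because they are undetected or close to the member genes in function, were chosen after their values were seen. No gene of like pattern is named, because 2 samples give 1 ratio per gene. Promoter sequences are from RefSeq.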

Additional observations from a re-analysis of the deposited data

How the results depend on the processing

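The number of members at least 1.5-fold lower, 2, was 1 without background correction, with normexp over all probes (offset of 50), with a neqc offset of 50, over genes detected on both arrays and with centring on detected probes, HLA-DMB or CIITA being lost; the number higher, 0, became 5 and the median log2 ratio, 0.04, became 0.67 in the last of these. Over all measured genes, 1556 were higher and 2059 lower. These became 891 and 1368 without background correction, 504 and 4346 when arrays were centred on their medians, and 638 and 3982 in the series matrix (values floored at 99.9). With no filter on detection they were 2495 and 3275, but of 20046 genes in place of 9410. With centring on detected probes, 2340 were higher. Fewer calls without background correction and more without a filter follow from how those settings are built, and the cause of the others was not tested. The median of the promoter factors, −0.70, was −0.49 without background correction, −0.56 with normexp and −1.31 with median centring, and with centring on detected probes 2 of them were higher. HLA-DRB1 turned to −0.10 with median centring. A detection threshold of 0.05 and the mean of a gene's probes changed no count of members called. No paired analysis was possible because each group has 1 array. Signals below 333.4 and 350.5 (control and Me6TREN) are not told from background, which limits CIITA.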

Other observations

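These are genes that act on class II molecules at the cell surface, or beside them in antigen-presenting cells, and their counts are given where 16.5% of all measured genes were at least 1.5-fold higher and 21.9% lower. Of 10 turnover and traffic genes with a probe, 6 were measured, with 1 at least 1.5-fold higher and 2 lower. MARCHF8, a ubiquitin ligase that removes class II molecules from the surface, gave 369.4 in the control and 604.7 with Me6TREN and was 3.85-fold higher, from signals near the detection limit. CD83, which protects class II molecules from such ligases, gave 3812.7 and 1290.8 and was 2.17-fold lower, and its second probe was 3.03-fold lower. AP1M1, a subunit of the clathrin adaptor AP-1, was 1.79-fold lower. MARCHF1 had a log2 ratio of −0.54.

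All 10 genes of the costimulation list were measured, and 4 were at least 1.5-fold lower and 2 higher. Of the 10, 7 were detected on both arrays and 3 on the control array alone. CD80 and ICOSLG, both counted as lower, are among those 3 and could enter only through the control. CD86 and CD80, the ligands of CD28, were 2.10-fold and at least 1.91-fold lower. CD86 gave 13271.1 in the control and 5197.1 with Me6TREN by its brightest probe, and its other 2 probes had log2 ratios of −0.52 and −0.57. CD58, an adhesion protein, was 2.12-fold lower and ICOSLG at least 1.85-fold lower. TNFSF9 and CD70, ligands of the tumour necrosis factor family, were 1.95-fold and 1.62-fold higher. CD80 and ICOSLG were not past the threshold without background correction (log2 ratios −0.41 and −0.38) or with normexp (−0.56 and −0.53). Nor was TNFSF9 with median centring (0.35) or the series matrix values (0.46). Of the 6 measured genes that lie among the class II genes on chromosome 6 or next to them but have other roles, TAP2, a chain of the class I peptide transporter, was 1.83-fold lower, and TAP1 had a log2 ratio of 0.25.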
